A study of Mus musculus with 16 samples.

Results

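The genes described here are the enzymes that build cholesterol and fatty acids, with the proteins that control and carry sterols. They were taken from a list of 34 genes, chosen by symbol with earlier measured results of these tumours known. Each gene was represented by 1 probe set, selected on its highest mean value over the 16 arrays. Of the 34 genes, 30 were named by a probe set in the table used, among 17097 genes in all: 16 of 18 sterol synthesis enzymes, 4 of 5 sterol regulators, the sterol carrier Stard4 and 9 of 10 fatty acid synthesis genes. Acat2, Pmvk, Srebf1 and Scd2 were named by no probe set and were not analysed here. Which measured values led to the choice of the list is not recorded. Hsd17b7 was already known to be lower in AntiPD1 than in Placebo tumours, so that contrast is given as a description. Contrasts that share those tumours add no independent support to it.

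Cholesterol is built from acetyl-CoA through the mevalonate pathway to farnesyl pyrophosphate, then to squalene and lanosterol, and lanosterol is trimmed to cholesterol in the post-lanosterol steps. The transcription factor SREBP-2, the product of Srebf2, is carried by SCAP from the endoplasmic reticulum to the Golgi when membrane sterol is low and switches these enzymes on, while INSIG proteins hold it back when sterol is plentiful. Fatty acid synthesis starts from the same acetyl-CoA, is driven mainly by SREBP-1c and ChREBP, and is most active in liver and fat tissue.

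The study treated mice carrying subcutaneous Hepa1-6 tumours, a mouse liver cancer line, with the kinase inhibitor cabozantinib, an antibody against the immune checkpoint PD-1, or both. The hosts were male C57BL/6 mice, 5 weeks old when 5000000 cells in 50% Matrigel by volume were placed in the flank, and treatment began at a tumour volume of 200 to 300 mm3. Whole fresh-frozen tumours taken on day 14 were profiled on 16 Affymetrix mouse arrays from 50 ng of RNA, and the values are log2 intensities. The 4 Placebo mice received hamster IgG at 10 mg/kg, 5 times at intervals of 3 days, and the 3 AntiPD1 mice received the hamster antibody J43 on the same schedule and dose. The 5 Cabozantinib mice received 30 mg/kg by mouth each day, and whether they also received IgG is not stated. The 4 Combination mice received cabozantinib and the antibody. All tumours came from 1 implanted line in an immunocompetent host, so host cells form part of each sample. Replicates are separate tumours by their titles, and the p-values measure the spread between them.

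Several tumours stood apart in genes of other cell types. The median of an array lay between 4.92 and 5.13 on the log2 scale, and 5.13, the highest array median, is used below as the mark of a dim probe set. Of the 10 adipocyte markers listed, 7 were measured, and their mean deviation from the gene means was 3.40 in Cabozantinib replicate 2, 2.47 in Combination replicate 1 and 1.79 in Combination replicate 2, against -1.11 to 0.32 in the other 13 tumours. The level of Adipoq, the fat cell hormone adiponectin, was 11.62, 11.38 and 10.94 in those 3 tumours and between 3.83 and 8.30 in the rest. Skeletal muscle markers stood highest in AntiPD1 replicate 2, Cabozantinib replicate 4 and Combination replicate 4. Of the 8 hepatocyte and liver tumour markers, 7 were measured, and 6 lay above the highest array median in the mean of every group. Of the 5 keratinocyte markers, 1 did so, and Krt5, Krt14, Krt1 and Trp63 were dim in every tumour. In bulk tissue, fewer cells of a type and less RNA per cell cannot be told apart.

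The sterol enzymes and the fatty acid genes followed partly different tumours. Each tumour was given a score for each set, the average, over the genes of the set, of how far the log2 value lay from the mean of that gene in all 16 tumours. The sterol enzyme score was 0.36, 0.13, 0.48 and 0.14 in the 4 Placebo tumours and -0.07, -0.32 and -0.39 in the 3 AntiPD1 tumours. It was 0.39, 0.34, -0.09, -0.27 and 0.10 in the 5 Cabozantinib tumours and -0.18, -0.25, -0.09 and -0.27 in the 4 Combination tumours. All 7 tumours that received the antibody lay below every Placebo tumour, while the Cabozantinib tumours spread over both ranges. The Placebo mean was 0.28 ± 0.17 (SD, n = 4) and that of Combination -0.20 ± 0.08 (SD, n = 4). For AntiPD1 it was -0.26 ± 0.17 (SD, n = 3), and for Cabozantinib 0.09 ± 0.28 (SD, n = 5).

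The fatty acid score was set by a few tumours. It was 1.56 in Cabozantinib replicate 2, 0.42 in Combination replicate 1 and 0.12 in Combination replicate 2, the tumours with the most adipocyte signal. The other 4 Cabozantinib tumours were at -0.35 to -0.01, the Placebo tumours at -0.07 to 0.13 and the AntiPD1 tumours at -0.63 to -0.27. Thus the AntiPD1 tumours lay below every Placebo tumour in this score too, and the Combination tumours, at -0.31 to 0.42, lay on both sides of them. The sterol score minus the fatty acid score averaged 0.27 ± 0.10 (SD, n = 4) for Placebo and 0.14 ± 0.17 (SD, n = 3) for AntiPD1. It averaged -0.09 ± 0.66 (SD, n = 5) for Cabozantinib and -0.26 ± 0.35 (SD, n = 4) for Combination. The sign of the Cabozantinib mean rested on 1 tumour, since without Cabozantinib replicate 2 it was 0.19. The spread in both cabozantinib-treated groups was wide, and the scores were not tested, since the genes were chosen with results known.

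**Figure D1:**
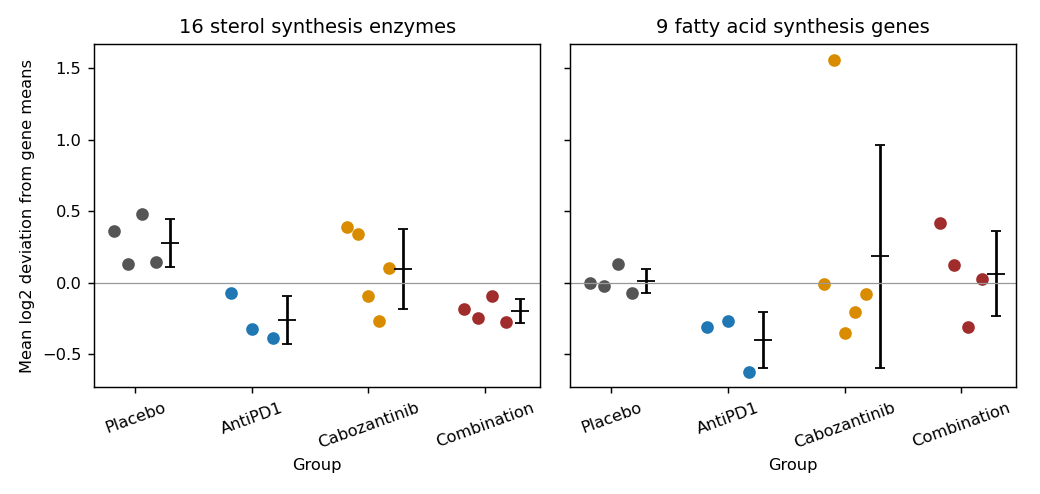
Mean log2 deviation from the gene means for the 16 sterol synthesis enzymes (left) and the 9 fatty acid synthesis genes (right). Each point is 1 tumour, and the black mark and bar beside each group give its mean and SD. The antibody-treated tumours lie below every Placebo tumour on the left, and 1 Cabozantinib tumour stands far above all others on the right.

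Within each set the genes moved together from tumour to tumour. With the group means removed, the median Pearson correlation over the 120 pairs of sterol enzymes was 0.56 across the 16 tumours, and over the 36 pairs of fatty acid genes it was 0.65. Over all pairs of the 17097 genes the median was 0.01. The fatty acid figure rested on 1 tumour: without Cabozantinib replicate 2 it was 0.16 over 15 tumours, while the sterol figure was 0.57. Between the sterol enzymes and the fatty acid genes the median was 0.36, and 0.25 without that tumour. The desaturases Fads1 and Fads2 followed the sterol enzymes more closely, with a median over 32 pairs of 0.56 in all tumours and 0.53 without Cabozantinib replicate 2. These values describe genes measured on the same arrays and carry no test.

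**Figure D2:**
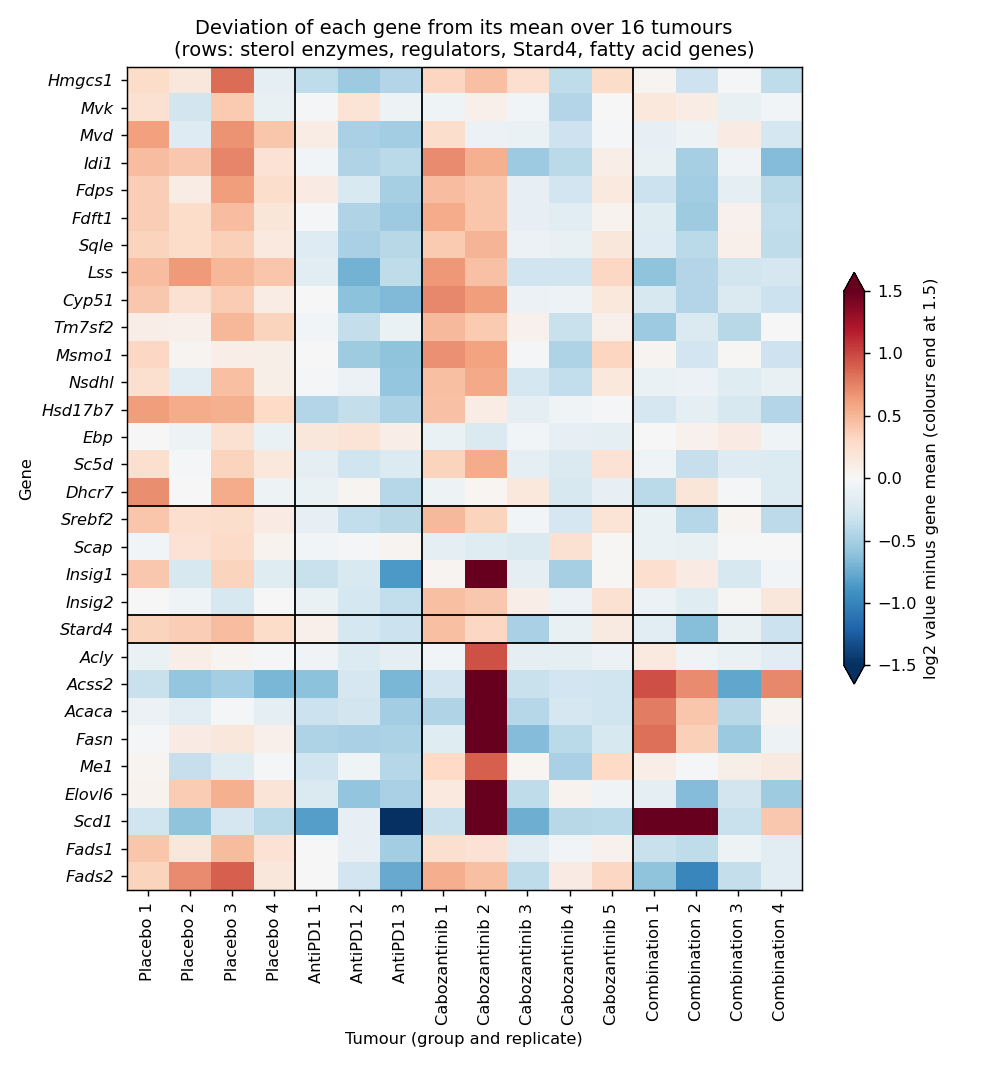
Log2 value of each of the 30 genes in each of the 16 tumours, minus the gene's mean over all tumours. Red is above and blue below the mean, and colours end at 1.5. The sterol enzymes at the top are mostly red in Placebo and in Cabozantinib replicates 1 and 2, and the fatty acid genes Acss2, Acaca, Fasn and Scd1 lie above their means in Cabozantinib replicate 2 and Combination replicates 1 and 2.

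The promoters of the sterol genes are shown because the pathway is switched by factors bound close to the start of transcription, where SREBP-2 acts beside the CCAAT-binding factor NF-Y. RefSeq promoter sequences on GRCm38.p6 were matched by symbol for 27 of the 34 genes, and the 250 bases before each start were searched on both strands. None was matched for Sqle, Fdps, Fdft1, Stard4 and Fads1, which passed in the antibody comparison below, nor for Scd1 and Scd2. Acat2, Pmvk and Srebf1, which no probe set named, are among the 27. The stretches below are the 170 bases before the start, 5′ to 3′ on the gene's strand, with capitals marking CCAAT on either strand and the sterol element core TCACNCCAC. Hmgcs1, Lss, Cyp51, Hsd17b7 and Srebf2 stand for the sterol genes that were lower with the antibody, and Fads2 for the fatty acid genes that were.
Hmgcs1, chr13:119690181-119690350, plus strand: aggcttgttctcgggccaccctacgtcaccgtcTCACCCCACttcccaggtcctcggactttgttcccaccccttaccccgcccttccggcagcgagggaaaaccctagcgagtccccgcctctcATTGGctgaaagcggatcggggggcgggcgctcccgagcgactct
Lss, chr10:76531435-76531604, plus strand: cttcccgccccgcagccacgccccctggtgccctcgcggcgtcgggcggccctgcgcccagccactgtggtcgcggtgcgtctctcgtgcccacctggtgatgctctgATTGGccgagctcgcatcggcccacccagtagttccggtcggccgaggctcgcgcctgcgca
Cyp51, chr5:4104698-4104867, minus strand: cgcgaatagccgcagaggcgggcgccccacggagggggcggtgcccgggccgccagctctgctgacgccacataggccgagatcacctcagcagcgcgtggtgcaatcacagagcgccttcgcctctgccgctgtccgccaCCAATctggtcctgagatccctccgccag
Hsd17b7, chr1:169969206-169969375, minus strand: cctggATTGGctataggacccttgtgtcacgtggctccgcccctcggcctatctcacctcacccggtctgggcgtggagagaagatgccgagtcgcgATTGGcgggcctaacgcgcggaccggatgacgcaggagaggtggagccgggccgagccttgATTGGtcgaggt
Srebf2, chr15:82147099-82147268, plus strand: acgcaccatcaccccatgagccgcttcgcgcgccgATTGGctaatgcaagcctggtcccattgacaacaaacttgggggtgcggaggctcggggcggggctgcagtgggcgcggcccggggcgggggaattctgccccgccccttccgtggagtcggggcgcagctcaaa
Fads2, chr19:10101504-10101673, minus strand: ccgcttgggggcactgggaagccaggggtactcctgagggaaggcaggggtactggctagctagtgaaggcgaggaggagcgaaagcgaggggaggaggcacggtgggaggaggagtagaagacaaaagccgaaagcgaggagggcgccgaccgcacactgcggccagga

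A CCAAT match was present in 21 of 27 genes (77.78%), against 37.49% of the 27025 genes in the promoter table. The GC box GGGCGG was present in 23 of 27 (85.19%, against 35.36% of all), and the E-box CACGTG in 5 of 27 (18.52%, against 6.86%). The sterol element core was found in Hmgcs1 alone, 1 of 27 genes (3.704%, against 1.225% of all). Only that exact string was searched, so other forms of the sterol element would have been missed. The median GC content was 62.8% in these promoters and 52.4% in all. Fads2 held no CCAAT match in its window. The 4 motifs were searched separately, so that matches may overlap, and a match describes the sequence only.

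The antibody was associated with lower sterol synthesis genes when both antibody groups were averaged and set against both groups without it. Placebo mice received hamster IgG, but whether Cabozantinib mice did is not stated. On the cabozantinib side, blocking PD-1 therefore cannot be told apart from receiving any hamster antibody. In this comparison 14 of the 30 genes passed the threshold, all 14 of them lower: 10 of the 16 sterol enzymes, the regulator Srebf2, Stard4, and 2 of the 9 fatty acid genes. Among all 17097 genes 18% passed in either direction and 9.66% were lower. The test was limma's moderated test with Benjamini-Hochberg adjustment over all genes at 0.05. The list was chosen with earlier results of these tumours known, and the AntiPD1 and Placebo tumours are those of the known Hsd17b7 contrast. The counts therefore describe the list and add no independent support. The median difference was -0.47 over the sterol enzymes, -0.14 over the fatty acid genes and -0.03 over all genes. Without Cabozantinib replicate 2 the medians were -0.43 over the sterol enzymes and -0.04 over the fatty acid genes. In that fit 14 of the 30 genes and 2399 of all genes passed, with Elovl6 (adjusted p = 0.0158) in place of Idi1 (adjusted p = 0.0592). No gene of the list was lower in all 7 antibody tumours than in all 9 others (0 of 30, against 0.509% of all genes), and Cabozantinib replicates 3 and 4 were often as low as the antibody tumours.

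In the mevalonate steps, 3 of the 5 measured enzymes fell. Hmgcs1, which makes the HMG-CoA that enters the pathway, was 5.90, 5.80, 6.46 and 5.47 in Placebo and 5.94, 6.08, 5.87, 5.24 and 5.90 in Cabozantinib. It was 5.23, 5.07 and 5.18 in AntiPD1 and 5.66, 5.31, 5.60 and 5.23 in Combination. The AntiPD1 values lay below every Placebo value, and Cabozantinib replicate 4 was as low as the antibody tumours. The gene fell by 0.55 ± 0.14 (SE) on the log2 scale (limma adjusted p = 0.0214). Its 1 probe set had a mean of 5.16 in AntiPD1, close to the dim mark of 5.13, and AntiPD1 replicate 2 lay below that mark. Idi1, the isomerase of the isoprenoid unit, fell by 0.58 ± 0.18 (adjusted p = 0.0376), and Fdps, the synthase of farnesyl pyrophosphate, by 0.51 ± 0.13 (adjusted p = 0.0192). Mvd, the decarboxylase of the pathway, differed by -0.36 ± 0.13 (adjusted p = 0.0761), and its second bright probe set by -0.04. The kinase Mvk differed by 0.05 ± 0.10 and was dim, with a mean of 5.13 in Placebo and 4.98 in Cabozantinib.

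All 3 enzymes that join farnesyl units into squalene and close it to lanosterol fell. Sqle, a rate-limiting epoxidase of the pathway, was 10.76, 10.70, 10.78 and 10.57 in Placebo and 10.24, 9.93 and 10.01 in AntiPD1. It was 10.82, 10.93, 10.34, 10.32 and 10.60 in Cabozantinib and 10.23, 10.03, 10.50 and 10.05 in Combination. Every antibody tumour lay below every Placebo tumour, and Combination replicate 3 lay above 2 of the 5 Cabozantinib tumours. Sqle fell by 0.52 ± 0.10 (limma adjusted p = 0.0110), and Fdft1, the squalene synthase, fell by 0.53 ± 0.12 (adjusted p = 0.0159).

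Lss, the cyclase that makes lanosterol, was 6.43, 6.60, 6.46 and 6.37 in Placebo and 5.79, 5.25 and 5.57 in AntiPD1. It was 6.61, 6.40, 5.66, 5.66 and 6.27 in Cabozantinib and 5.36, 5.52, 5.69 and 5.71 in Combination. The Placebo values were tightly grouped above all antibody values, while the Cabozantinib values fell into a high set of 3 and a low set of 2. Lss fell by 0.74 ± 0.14 (limma adjusted p = 0.0108), the largest difference among the sterol enzymes in this comparison.

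Of the 8 enzymes after lanosterol, 4 fell. Hsd17b7, a ketoreductase of the sterol ring, was 7.01, 6.94, 6.91 and 6.68 in Placebo and 5.94, 6.02 and 5.91 in AntiPD1. It was 6.82, 6.49, 6.24, 6.33 and 6.36 in Cabozantinib and 6.13, 6.24, 6.15 and 5.95 in Combination. The AntiPD1 tumours were the lowest together with Combination replicate 4, and Cabozantinib replicate 1 lay inside the Placebo range, while Cabozantinib replicate 3 was level with the highest Combination tumour. Hsd17b7 fell by 0.63 ± 0.08 (limma adjusted p = 0.00995). A second probe set of the gene differed by -0.29 and another, which was dim, by -0.09.

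Cyp51, the demethylase that removes a methyl group from lanosterol, fell by 0.64 ± 0.13 (limma adjusted p = 0.0128). Its values were 9.26, 9.09, 9.24 and 8.97 in Placebo, 8.86, 8.24 and 8.19 in AntiPD1, 9.58, 9.48, 8.77, 8.78 and 9.01 in Cabozantinib and 8.61, 8.41, 8.63 and 8.53 in Combination. Combination lay below every Placebo and every Cabozantinib tumour, and only AntiPD1 replicate 1 reached the Cabozantinib range. Tm7sf2, a sterol reductase, fell by 0.42 ± 0.12 (adjusted p = 0.0287), and Sc5d, a sterol desaturase, by 0.37 ± 0.10 (adjusted p = 0.0260). A second bright probe set of Sc5d differed by -0.89. The methyl oxidase Msmo1 differed by -0.44 ± 0.15 (adjusted p = 0.0590) and Nsdhl, which acts beside it, by -0.31 ± 0.14 (adjusted p = 0.145). Dhcr7, a reductase of the final steps, differed by -0.26 ± 0.13 (adjusted p = 0.164). Ebp, the sterol isomerase, ran the other way at 0.15 ± 0.05 (adjusted p = 0.0628).

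Among the regulators Srebf2 fell, by 0.47 ± 0.11 (limma adjusted p = 0.0152). It was 9.19, 9.02, 9.04 and 8.90 in Placebo and 8.65, 8.40 and 8.36 in AntiPD1. In Cabozantinib it was 9.26, 9.11, 8.73, 8.52 and 8.98, and in Combination 8.67, 8.35, 8.82 and 8.39. The antibody tumours lay below every Placebo tumour, and 2 Cabozantinib tumours lay among them. Scap, the escort of SREBP proteins, differed by -0.07 ± 0.07 (adjusted p = 0.546). Insig1 and Insig2, the retention proteins, differed by -0.37 ± 0.25 (adjusted p = 0.324) and -0.20 ± 0.08 (adjusted p = 0.102). Stard4, which carries cholesterol between membranes, fell by 0.45 ± 0.12 (adjusted p = 0.0264), with all 3 of its probe sets between -0.48 and -0.44.

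Of the fatty acid genes, the 2 desaturases of polyunsaturated fatty acids fell. Fads2 was 7.59, 7.96, 8.15 and 7.41 in Placebo and 7.25, 6.96 and 6.49 in AntiPD1. It was 7.79, 7.70, 6.87, 7.37 and 7.56 in Cabozantinib and 6.64, 6.27, 6.89 and 7.07 in Combination. The antibody tumours lay below every Placebo tumour, and Cabozantinib replicate 3 lay among them. Fads2 fell by 0.81 ± 0.17 (limma adjusted p = 0.0126) and Fads1 by 0.42 ± 0.09 (adjusted p = 0.0132). Elovl6, which lengthens palmitate, differed by -0.74 ± 0.26 (adjusted p = 0.0654).

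The enzymes that make saturated and monounsaturated fatty acids did not pass. Acly, which makes cytosolic acetyl-CoA from citrate, differed by -0.14 ± 0.14, and Acaca, the first committed enzyme, by -0.10 ± 0.32. Fasn, the fatty acid synthase, differed by -0.26 ± 0.32, Me1, a source of NADPH, by -0.14 ± 0.15, and Acss2, which activates acetate, by 0.00 ± 0.47. Scd1, the main stearoyl-CoA desaturase, differed by 0.22 ± 0.43, and its second probe set by -0.28. The standard errors of Acaca, Fasn, Acss2 and Scd1 were between 0.32 and 0.47, against 0.08 to 0.18 for the 14 genes that fell. Without Cabozantinib replicate 2 Acaca differed by 0.15, Fasn by -0.03 and Acss2 by 0.36, and none of these passed. Over the 16 genes with several bright probe sets, 15 had the same sign in all of them, and Scd1 was the exception.

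**Figure D3:**
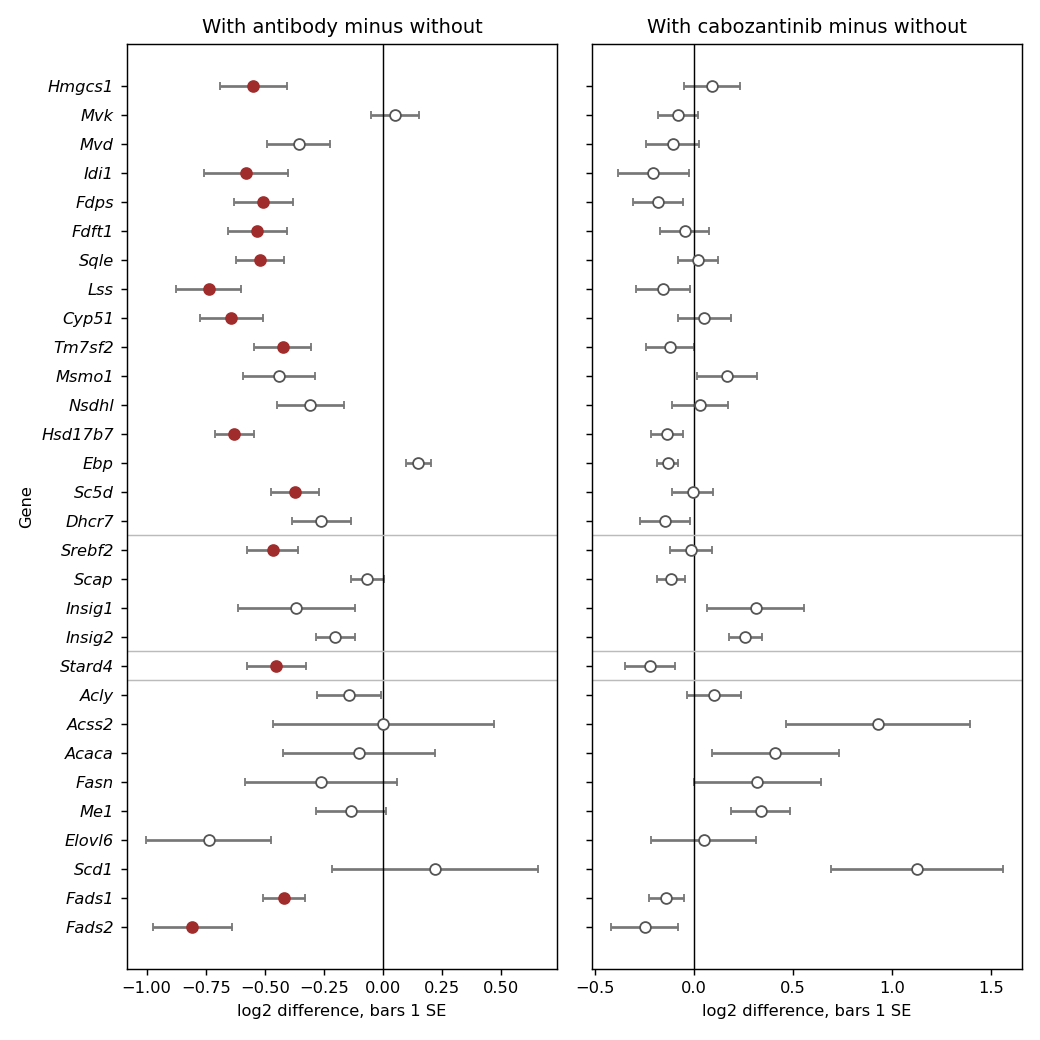
Log2 difference of each gene between tumours with and without the antibody, averaged over cabozantinib (left), and with and without cabozantinib, averaged over the antibody (right). Bars are 1 SE from the limma fit, and filled points passed the adjusted threshold. The filled points on the left lie between -0.81 and -0.37, and no point on the right is filled.

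Markers of host cells and Y-linked genes moved with the antibody as well. All 11 macrophage markers rose in the same comparison, with a median difference of 1.30, and their mean log2 level ran from 7.68 to 10.37 in the 9 tumours without antibody and from 10.29 to 11.11 in the 7 with it, with 1 Cabozantinib tumour inside the upper range. The mean deviation of the Y-linked genes Kdm5d, Eif2s3y and Uty was -1.02 to 0.15 without antibody and 0.25 to 1.0 with it, so that the groups did not overlap. The hosts were male, but whether the implanted line expresses these genes is not stated. Of 7 fibroblast markers 4 rose, of 8 endothelial markers 5 rose, with a median of 0.73, and of 7 hepatocyte and tumour cell markers 2 fell. Among all genes 18% passed in either direction and 9.66% were lower. With the macrophage score as a covariate, 0 of the 30 genes and 1 of all genes passed in limma, and with the Y-linked score 0 and 0. Without the 3 tumours with the most adipocyte signal, 0 of the 30 genes and 0 of all genes passed, although Lss differed by -0.64 (adjusted p = 0.0836) and Hsd17b7 by -0.66 (adjusted p = 0.0693). Both covariates and this subset were added after seeing the data, and the part of host cells in the result was not tested beyond them. Without AntiPD1 replicate 2, 6 of the 30 genes and 602 of all genes passed.

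**Figure D4:**
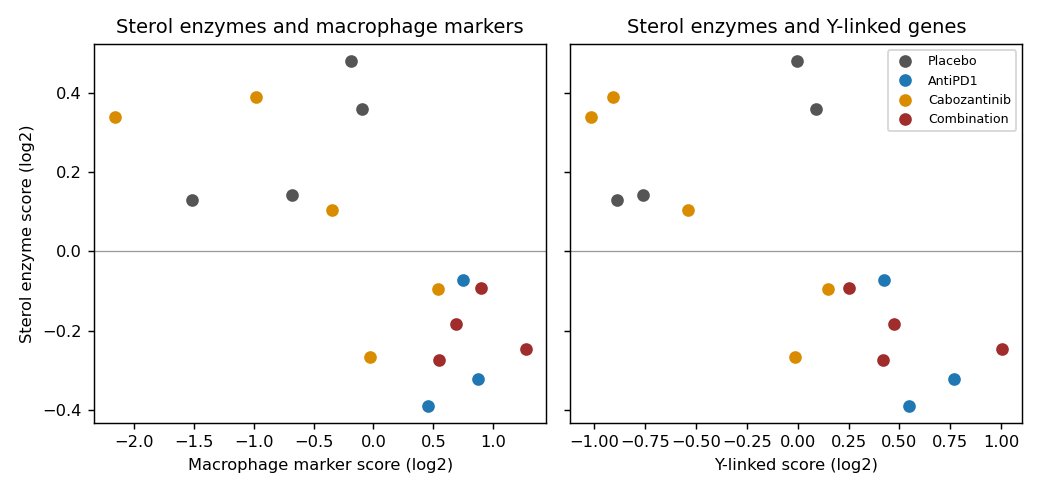
Sterol enzyme score of each of the 16 tumours against its macrophage marker score (left) and its Y-linked score (right), all as mean log2 deviation from the gene means. The 7 antibody-treated tumours lie at the right of both panels, at macrophage scores of 0.45 or above, a range that 1 Cabozantinib tumour shares, and Y-linked scores of 0.25 or above. Cabozantinib replicate 2 has the lowest macrophage and the lowest Y-linked score.

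Neighbouring lists of lipid genes were described alongside. Of 9 measured genes of sterol efflux and storage, 6 rose and 0 fell with the antibody averaged over cabozantinib, with a median of 0.52. Abcg1, a cholesterol exporter, rose by 1.44 ± 0.32 (limma adjusted p = 0.0146). Mylip, a ubiquitin ligase induced by sterol, rose by 0.85 ± 0.17 (adjusted p = 0.0117), Lipa, the lysosomal acid lipase, by 0.97 ± 0.21 (adjusted p = 0.0137), and Ch25h, which makes 25-hydroxycholesterol, by 1.14 ± 0.26 (adjusted p = 0.0150). Macrophages also express these 4 genes. Of 4 other measured genes tied to sterol synthesis, 3 fell and 1 rose: Lbr, a sterol reductase of the nuclear envelope, fell by 0.22 ± 0.06, the proteases Mbtps1 and Mbtps2, which release SREBP, fell by 0.16 ± 0.05 and 0.21 ± 0.06, and Ggps1, which makes geranylgeranyl pyrophosphate, rose by 0.34 ± 0.10. Of 16 other fatty acid genes 5 fell and 1 rose, led by the elongase Elovl7, which fell by 0.47 ± 0.08 (adjusted p = 0.0103). Of 8 fatty acid oxidation genes 1 rose, Cpt1a, the gate of mitochondrial uptake, by 0.34 ± 0.10 (adjusted p = 0.0300). Among all 17097 genes 18% passed in either direction and 9.66% were lower, so 1 gene in 8 or in 16 does not set a list apart.

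The Combination tumours differed from Placebo in 8 of the 30 genes, all lower, among 10.4% of all genes that passed and 6.64% that were lower. The list was chosen with earlier results of these tumours known. The Placebo tumours also enter the known Hsd17b7 contrast, so these calls add no independent support. The sterol enzymes Hsd17b7, Lss, Fdps, Sqle and Fdft1 fell, as did Stard4, Fads2 and Fads1. The limma differences were -0.77 ± 0.11 (SE) for Hsd17b7 (adjusted p = 0.00875), -0.89 ± 0.19 for Lss (adjusted p = 0.0194) and -1.06 ± 0.23 for Fads2 (adjusted p = 0.0204). They were -0.56 ± 0.12 for Fads1 (adjusted p = 0.0204), -0.69 ± 0.18 for Fdps (adjusted p = 0.0314) and -0.67 ± 0.17 for Stard4 (adjusted p = 0.0325). A second probe set of Hsd17b7 differed by -0.26 and another, which was dim, by -0.01. Sqle and Fdft1 fell by 0.50 ± 0.14 and 0.58 ± 0.17 (adjusted p = 0.0405 and 0.0481). In 15 of 30 genes every Combination tumour lay below every Placebo tumour, among them 10 sterol enzymes and 3 fatty acid genes, against 12.9% of all genes. Scd1 differed most in the other direction, by 1.34 ± 0.61 (adjusted p = 0.155).

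This count moved with single tumours, and the count over all genes, 1771 with every tumour, moved as well. Without Placebo replicate 2 it was 1, with 61 of all genes, and without Combination replicate 2 it was 1, with 42. It was 2 without Placebo replicate 3, with 370 of all genes, and 3 without Placebo replicate 4, with 255. Without Combination replicate 1 or 4 it was 5, with 1058 and 1275 of all genes. It was 14 without Cabozantinib replicate 2, which enters only through the shared spread, with 2156 of all genes. It was 0 without the 3 tumours with the most adipocyte signal, where 5 of all genes passed. That subset keeps 2 of the 4 Combination tumours, and in it the 8 genes differed by -0.84 (Hsd17b7) to -0.43 (Sqle). The count was 0 with the macrophage or the Y-linked score as a covariate, where 0 and 1 of all genes passed. Other lists moved in the same comparison: 8 of 14 measured cell cycle genes fell, 3 of 7 hepatocyte and tumour cell markers fell, with a median of -0.38, and 5 of 8 endothelial markers fell while 1 rose. With every tumour, 10.4% of all genes passed and 6.64% were lower. All 11 macrophage markers were positive, 4 of them past the threshold. The part of these cells in the result was not tested beyond the covariates.

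The antibody alone is given as a description. In AntiPD1 against Placebo 1 of the 30 genes passed, Hsd17b7, among 0.0292% of all genes, and its differences from Placebo were known before the list was made. In 17 of the 30 genes every AntiPD1 tumour lay below every Placebo tumour, 10 sterol enzymes and 5 fatty acid genes among them, against 12.3% of all genes. At an unadjusted p under 0.05, 17 of 30 were lower, against 10.8% of all genes. Hsd17b7 differed by -0.93 ± 0.12 (SE), Lss by -0.92 ± 0.21 and Sqle by -0.64 ± 0.15. A second probe set of Hsd17b7 differed by -0.51 and another, which was dim, by -0.04. Acaca and Fasn, which the Combination tumours with adipocyte signal held high, were also lower in all 3 AntiPD1 tumours: Fasn was 8.71, 8.68 and 8.69 there and 9.14, 9.29, 9.34 and 9.25 in Placebo. On the other side stood Ebp at 0.15 ± 0.08 and Acss2 at 0.01 ± 0.70. The call of Hsd17b7 was lost without any 1 of Placebo replicates 1, 2 and 3, AntiPD1 replicates 1 and 2, Cabozantinib replicates 4 and 5 and Combination replicates 1 and 3. In each of those fits 0 of all genes passed.

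In Combination against Cabozantinib the Placebo and AntiPD1 tumours enter only through the shared spread. Since IgG in the Cabozantinib mice is not stated, blocking PD-1 cannot be told apart here from receiving any hamster antibody. None of the 30 genes passed in limma (0 of 30, against 0.00585% of all genes), while 15 had an unadjusted p under 0.05, 14 of them lower, and 12.6% of all genes were lower at that mark. Fads2 differed by -0.74 ± 0.22 (SE; adjusted p = 0.0908), Cyp51 by -0.58 ± 0.18 (adjusted p = 0.0941) and Hsd17b7 by -0.33 ± 0.11 (adjusted p = 0.105). Differences above 0 were led by Ebp at 0.15 ± 0.07 (adjusted p = 0.220), Scd1 at 0.89 ± 0.57 (adjusted p = 0.380) and Mvk at 0.12 ± 0.13 (adjusted p = 0.635). Cyp51 alone was lower in every Combination than in every Cabozantinib tumour, 1 of 30 genes against 3.05% of all. Without Cabozantinib replicate 3, 6 of the 30 and 1955 of all genes passed, and without Cabozantinib replicate 4, 0 of the 30 and 3 of all genes. The sterol enzymes' median was -0.36, the fatty acid genes' -0.13 and that of all genes -0.03. Without Cabozantinib replicate 2 the fatty acid median turned to 0.07, and Scd1 differed by 1.42 (adjusted p = 0.157).

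Cabozantinib alone changed none of the 30 genes past the threshold. In Cabozantinib against Placebo limma called 0 of 30, against 0.257% of all genes, and 4 of 30 and 2218 of all genes had an unadjusted p under 0.05. The sterol enzymes were slightly lower in the median, at -0.14, against 7.1e-05 over all genes, and 15 of 16 had a negative difference. These enzymes moved together from tumour to tumour, so the 15 are not independent observations. Hsd17b7 differed by -0.44 ± 0.11 (SE; adjusted p = 0.104), Mvd by -0.43 ± 0.18 (adjusted p = 0.320) and Fads1 by -0.26 ± 0.12 (adjusted p = 0.374). Insig2 differed by 0.29 ± 0.11 (adjusted p = 0.279), Me1 by 0.33 ± 0.20 (adjusted p = 0.511) and Acss2 by 0.93 ± 0.62 (adjusted p = 0.572). Without Cabozantinib replicate 2, Me1 differed by 0.16 and Acss2 by 0.22. No gene was lower in every Cabozantinib than in every Placebo tumour (0 of 30, against 2.54% of all genes). Hsd17b7 overlapped through Cabozantinib replicate 1 alone. With each of the 16 tumours left out in turn, 1 of the 30 and 24 of all genes passed without that tumour, and 0 of the 30 without any other.

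The inhibitor averaged over the antibody gave 0 of 30 calls in limma, against 2.12% of all genes, with 4 of 30 and 2753 of all genes at an unadjusted p under 0.05. Insig2, the retention protein, differed by 0.26 ± 0.08 (SE; adjusted p = 0.128), Scd1 by 1.12 ± 0.43 (adjusted p = 0.208) and Me1 by 0.34 ± 0.15 (adjusted p = 0.279). Ebp differed by -0.13 ± 0.05 (adjusted p = 0.228), Stard4 by -0.22 ± 0.12 (adjusted p = 0.412) and Hsd17b7 by -0.14 ± 0.08 (adjusted p = 0.435). With the macrophage or the Y-linked score as a covariate 1 of 30 passed, Insig2, with adjusted p = 0.0499 and 0.0473, when 765 and 929 of all genes passed (4.47% and 5.43%). Combination against AntiPD1 also gave 0 of 30, against 0.234% of all genes, and 1 of 30 and 1233 of all genes had an unadjusted p under 0.05. There Scd1 differed by 1.80 ± 0.65 (adjusted p = 0.508), Insig2 by 0.22 ± 0.12 (adjusted p = 0.779), Me1 by 0.34 ± 0.22 (adjusted p = 0.835) and Ebp by -0.13 ± 0.08 (adjusted p = 0.816). Fdps and Stard4 were next below 0, at -0.15 ± 0.19 and -0.14 ± 0.19.

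Whether the antibody's difference depended on cabozantinib was tested by the interaction of the drugs. It gave 0 of 30 genes and 0% of all genes in limma, with 2 of 30 and 440 of all genes at an unadjusted p under 0.05. Hsd17b7 had the largest statistic, with an interaction of 0.60 ± 0.16 (SE; adjusted p = 0.9997), which is a smaller difference in Combination against Cabozantinib than in AntiPD1 against Placebo. Mvd followed at 0.64 ± 0.27 and Scd1 at 1.35 ± 0.87. Insig2, Elovl6 and Tm7sf2 had the largest statistics below 0, at -0.07 ± 0.17, -0.03 ± 0.53 and -0.01 ± 0.24, all within their errors.

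Scd1, Acaca and Fasn were highest in the 3 tumours with the most adipocyte signal. Scd1 was 13.25 in Cabozantinib replicate 2, 13.08 in Combination replicate 1 and 12.77 in Combination replicate 2, and between 9.49 and 11.47 in the other 13 tumours. Acaca was 9.56, 8.22 and 7.86 in the same 3 tumours and 6.92 to 7.50 elsewhere, and Fasn was 11.18, 10.00 and 9.53 against 8.51 to 9.34. Acaca, Fasn and Scd1 were the 3 of 30 genes with all 3 of these tumours above every other tumour, against 101 of 17097 genes, and no sterol enzyme did so.

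Acss2 was 9.90 in Cabozantinib replicate 2, and 7.63, 7.37, 5.87 and 7.38 in the 4 Combination tumours. The other 4 Cabozantinib tumours were at 6.37, 6.32, 6.37 and 6.36, and Placebo at 6.33, 6.08, 6.15 and 5.97. Thus 1 Cabozantinib and 3 Combination tumours stood apart from all the rest, and Combination replicate 4, the tumour with the fourth-highest adipocyte score, was among them. Cabozantinib replicate 2 held the highest value in 7 of the 9 fatty acid genes and in 3 of the 16 sterol enzymes, Sqle, Nsdhl and Sc5d. Elovl6 was split: it was 10.06 in Cabozantinib replicate 2 and 7.93 and 7.42 in Combination replicates 1 and 2, below every Placebo tumour. Insig1 was likewise 8.64 in Cabozantinib replicate 2 and at most 7.44 elsewhere. The part of adipocytes in these values was not tested. The adipocyte marker levels are given above, and no sebaceous marker list could be read, since 3 of its 6 genes were measured and 2 of them were dim in every tumour.

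**Figure D5:**
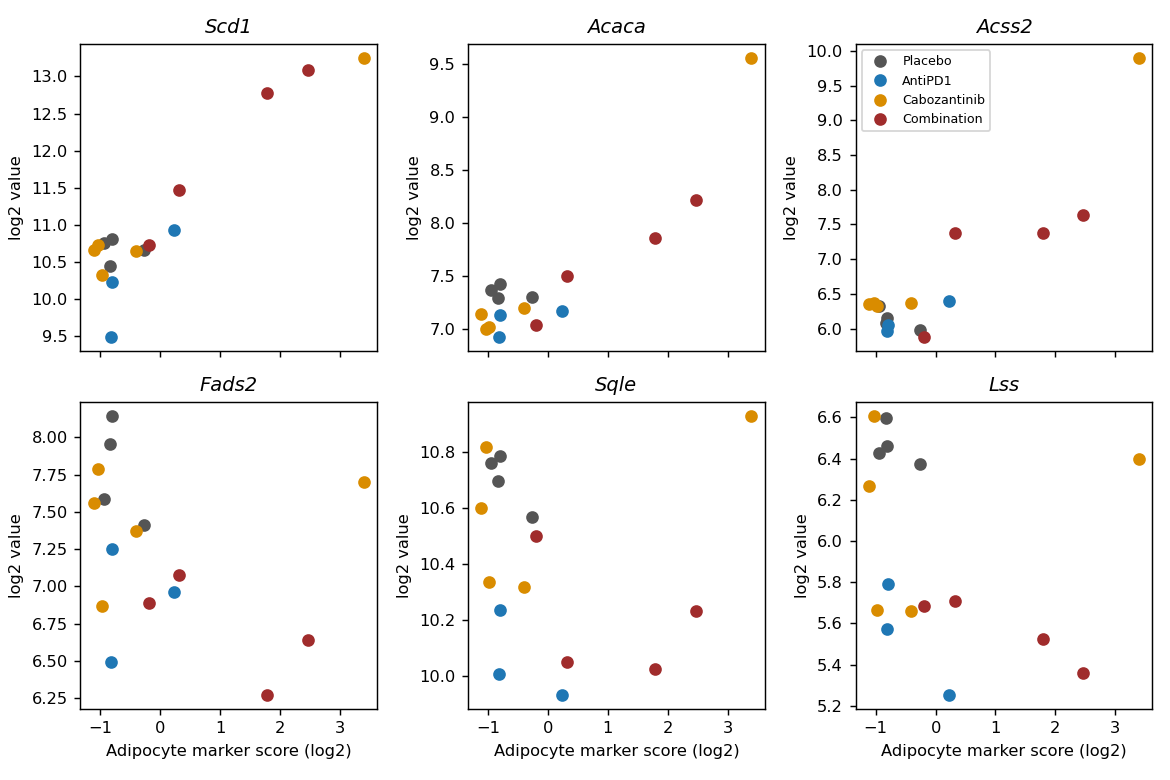
Log2 value of 4 fatty acid genes and 2 sterol enzymes in each tumour against its adipocyte marker score, the mean log2 deviation of 7 markers. Points are tumours, coloured by group. Scd1 and Acaca are highest in the 3 tumours at the right, and Acss2 in those 3 and Combination replicate 4, while Fads2, Sqle and Lss are low in the 2 Combination tumours there and higher in Cabozantinib replicate 2.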

How the data were processed

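The labels describe 16 Affymetrix mouse arrays, 1 per tumour. Per the submitters' processing notes, the deposited log2 values were made with RMA in affy 1.62.0; the values carry no detection calls. Of 45037 probe sets that are no controls, 28898 had 1 gene symbol in the platform annotation, 551 several and 15588 none, and probe sets with 1 symbol gave 17097 genes, each by the probe set with the highest mean. Group means of all 16 arrays were fitted with limma 3.58.1 in R 4.3.3 (12 residual degrees of freedom, prior 2.47), with Benjamini-Hochberg adjustment over all genes at 0.05. The procedure was checked on simulated data in which genes varied independently and no tumour stood apart. The check does not cover genes that move together or single outlying tumours. Members and gene lists were chosen with earlier results of these data known. Every member past the threshold was named; where fewer than 3 passed, the 3 largest statistics on each side were, and up to 4 genes from each other list. Array scan dates were not analysed here. The numbers in the titles could not be tied to cages or batches, since their meaning is not stated.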

Additional observations from a re-analysis of the deposited data

Results flagged for a closer look

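In each group of 4 or 5 tumours the gap between the extreme tumour and its neighbour was set against the group's range, and read against Dixon's 95% limit. Of 90 gene and group pairs 10 exceeded the limit, where chance gives about 1 in 20; genes measured on the same tumours are not independent, and the AntiPD1 group of 3 was not examined. Cabozantinib replicate 2 stood above the other 4 tumours of its group in 7 genes: Acss2 at 9.90, Acaca at 9.56, Fasn at 11.18, Scd1 at 13.25, Elovl6 at 10.06, Acly at 11.61 and Insig1 at 8.64. Cabozantinib replicate 4 stood below its group in Hmgcs1 at 5.24 and Mvk at 4.63. Combination replicate 3 stood below its group in Acss2 at 5.87. Cabozantinib replicate 2 also held the highest adipocyte marker score of all tumours, 3.40, and the lowest macrophage score, -2.16.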

How the results depend on the processing

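For the antibody averaged over cabozantinib the count of 14 genes past the threshold stayed between 12 and 19 under the other planned settings, ran from 6 to 17 with single tumours left out, and was 0 with the macrophage score or the Y-linked score as a covariate and 0 without the 3 highest adipocyte tumours. For Combination against Placebo the count of 8 was 13 with array weights, 14 with the 2 groups alone, 1 to 14 with single tumours left out, and 0 with the macrophage score, with the Y-linked score or without the 3 highest adipocyte tumours. For AntiPD1 against Placebo the count of 1 was 8 with array weights, 4 with the 2 groups alone, 0 to 1 with single tumours left out, and 0 with the mean of all probe sets, without the 2 adipocyte-high tumours, without the 3 muscle-high tumours or with the macrophage or the Y-linked score. For Combination against Cabozantinib the count of 0 was 3 with array weights and 0 to 6 with single tumours left out, and for Cabozantinib against Placebo 0 to 1. For cabozantinib averaged over the antibody it was 1 with the macrophage and 1 with the Y-linked score. The cause was not tested. In these covariate fits few or no genes of the whole table passed for the antibody. Both covariates and the subset without the 3 highest adipocyte tumours were chosen after seeing the data. With single tumours left out, counts over all genes ran from 602 to 4258 for the antibody averaged over cabozantinib. They ran from 42 to 2290 for Combination against Placebo and from 0 to 30 for AntiPD1 against Placebo. Counts over all genes under array weights and the other planned settings are not given here. A larger count of list genes there cannot be read as particular to the list.

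Some named differences turned direction, none of them past the threshold. Acss2 in AntiPD1 against Placebo was -0.027 with centred arrays, -0.025 with array weights, -0.17 with the adipocyte score as a covariate, -0.13 without the 3 muscle-high tumours, and -0.13 to 0.092 with single tumours left out. Mvk in Combination against Cabozantinib was -0.022 with the Y-linked score, and Fdps in Combination against AntiPD1 was -0.29 to 0.014 with single tumours left out. In the interaction, Insig2 was 0.0025 without the 2 and 0.10 without the 3 adipocyte-high tumours, and -0.14 to 0.0063 with single tumours left out. Elovl6 was 0.11 with the mean of all probe sets, 0.024 with array weights, 0.053 with the macrophage score, 0.29 and 0.37 without the 2 and the 3 adipocyte-high tumours, and -0.22 to 0.37 with single tumours left out. Tm7sf2 was 0.0029 with centred arrays, 0.00994 with the macrophage score, 0.14 and 0.14 without the 2 and the 3 adipocyte-high tumours, and -0.12 to 0.079 with single tumours left out.

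The sterol minus fatty acid mean of Cabozantinib, -0.09, ran from -0.21 to 0.19 with single tumours left out and turned sign without Cabozantinib replicate 2. The Combination mean, -0.26, was -0.04 without the 3 highest adipocyte tumours. The Placebo and AntiPD1 means stayed above 0 under the settings tried. Replicate numbers here only name tumours, but some titles open with a shared number of unstated meaning, in 3 pairs across groups and 1 within Cabozantinib. Deviations from the group means correlated at 0.09, 0.07 and 0.26 over all genes in the 3 pairs and at -0.71 in the other. Deviations of tumours of the same group from their shared mean lean towards negative correlation by construction. So few pairs cannot settle what the numbers mean. The numbers were not taken to pair tumours, since their meaning is not stated. A random replicate block on the number was added after seeing the data. With it the count was 14 for the antibody averaged over cabozantinib, where 16.6% of all genes passed. The count was 9 for Combination against Placebo, where 10.9% of all genes passed, and the other comparisons kept their counts. With 3 to 5 tumours a group and 12 residual degrees of freedom, modest differences in variable genes such as Scd1 and Acss2 could not be resolved.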
